A study of Mus musculus with 8 samples.

Results

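The genes described here are 10 components of the core machinery of ER-associated degradation (ERAD): Herpud1, Syvn1, Sel1l, Derl1, Derl2, Derl3, Edem1, Edem2, Os9 and Rnf5. They were taken by symbol from a list and by no cut on their values, but with earlier results of these data known. All 10 were found among the 16133 genes of the authors' deposited table, and 9 of them had peaks in each list of m6A (N6-methyladenosine) peaks. The livers came from METTL14Alb mice (here KO), whose label names the albumin promoter, active in hepatocytes, and from METTL14f/f mice (here WT), which carry the floxed alleles without the label of a deletion. Every mouse of both genotypes had received tunicamycin by intraperitoneal injection at 2 mg/kg, and the time given is 24 hours, so the comparison holds no untreated liver. Each genotype had 2 input libraries of polyadenylated, fragmented liver RNA and 2 libraries after m6A immunoprecipitation (IP). The labels do not say whether libraries of a genotype came from separate mice, so p-values measure the spread between these libraries, which may be technical.

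Tunicamycin blocks the first step of N-linked glycosylation, and unfolded glycoproteins then collect in the ER. ERAD recognises such proteins, moves them back through the ER membrane, attaches ubiquitin and hands them to the cytosolic ATPase VCP and the proteasome. Lectins and mannosidases (OS9, EDEM1, EDEM2) read and trim the glycan of a client, SEL1L receives it, the derlins form part of the passage through the membrane, and SYVN1 (also named HRD1) ubiquitinates it, with HERPUD1 as a membrane partner of the complex. Many of these genes are known targets of XBP1 and ATF6, the transcription factors of the unfolded protein response. METTL14 pairs with METTL3 to write m6A into mRNA, and METTL14 protein has itself been described as a client of the SYVN1 and SEL1L complex.

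The promoters of 3 members carried letters known as ER stress elements, and they are shown because these genes also fell in KO livers, as given further on. The windows run over 250 bases before and 50 bases after the gene start in RefSeq, build GRCm38.p6. The set of windows used here held at least 1 for 8 of the 10 members and none for Derl1 and Rnf5. Capitals mark exact motif matches, and near matches were not counted for any member. In Herpud1 (chr8:94386179-94386478, plus strand) the first capitals are TTGCATCA, an amino acid response element (TGATGNAA) read on the other strand, and the second are an ER stress element II, ATTGG with CCACG 1 base after it. In Syvn1 (chr19:6046326-6046625, plus strand) and Derl3 (chr10:75893148-75893447, plus strand) they are the ER stress element, CCAAT with CCACG 9 bases after it, which stands on the opposite strand in Derl3. Sel1l (chr12:91849108-91849407, minus strand) had no exact match and is shown for comparison, because its count did not pass the test. Its window does hold CCAAT with CCATG 9 bases after it, 1 letter off the ER stress element. Of the other members with a window and no match, Derl2, Edem1 and Os9 were called lower in KO too, and Edem2 was not called. Members called lower were thus found both with and without an exact match, and any part of the elements in the changes was not tested.
Herpud1: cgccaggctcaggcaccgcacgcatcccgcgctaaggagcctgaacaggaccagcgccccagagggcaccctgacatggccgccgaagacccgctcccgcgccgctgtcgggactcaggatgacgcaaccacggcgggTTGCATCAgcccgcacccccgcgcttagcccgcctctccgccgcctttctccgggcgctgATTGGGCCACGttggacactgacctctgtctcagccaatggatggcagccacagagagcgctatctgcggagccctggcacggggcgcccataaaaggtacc
Syvn1: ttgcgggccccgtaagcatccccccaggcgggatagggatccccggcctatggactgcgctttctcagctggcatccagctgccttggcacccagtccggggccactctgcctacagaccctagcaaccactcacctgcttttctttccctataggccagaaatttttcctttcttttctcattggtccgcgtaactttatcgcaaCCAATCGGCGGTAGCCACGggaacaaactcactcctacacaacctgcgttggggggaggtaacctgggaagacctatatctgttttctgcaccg
Derl3: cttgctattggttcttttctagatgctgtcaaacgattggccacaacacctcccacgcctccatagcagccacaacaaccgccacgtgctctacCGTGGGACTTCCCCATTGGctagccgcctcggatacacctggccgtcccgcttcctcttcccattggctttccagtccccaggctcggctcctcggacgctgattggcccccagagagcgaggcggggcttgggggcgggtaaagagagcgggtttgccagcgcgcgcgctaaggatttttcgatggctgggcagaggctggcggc
Sel1l: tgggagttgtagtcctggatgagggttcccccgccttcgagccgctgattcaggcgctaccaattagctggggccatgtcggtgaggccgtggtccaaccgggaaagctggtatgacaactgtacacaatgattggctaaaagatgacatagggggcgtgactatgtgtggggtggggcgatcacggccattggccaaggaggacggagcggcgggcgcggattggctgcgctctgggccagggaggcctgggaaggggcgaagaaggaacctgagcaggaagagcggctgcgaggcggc

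Both strands of each window were searched. The ER stress element was found in 39 of 32851 mouse promoter windows (0.119%), with the match at bases -44 to -26 from the start of Syvn1 and at bases -156 to -138 from that of Derl3. ER stress element II was found in 12 windows (0.0365%), and that of Herpud1 lay at bases -52 to -42. The amino acid response element was found in 3.97% of windows and in Herpud1 alone among the members. An unfolded protein response element, TGACGTGG, was in 0.676% of windows and in 0 of the members with a window. CCAAT alone was in 37.4% of windows and CCACG alone in 32.8%, and it is their spacing that set the few windows apart. Derl2, Edem1, Edem2, Os9 and Sel1l had windows with no exact match to the 4 elements, which says only that these letters were not in the window.

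The input libraries held an estimated 12532520 and 12440283 reads in KO and 16891262 and 13442200 in WT, and within a genotype log2 counts correlated across genes at 0.98 in each case. The libraries of each genotype are named A and B here, because their counts were worked back out of the deposited means and carry no replicate number. Normalised read counts are counts divided by the size factor of the library. The targeted gene Mettl14 had normalised counts of 64.6 and 62.0 in KO livers, against 79.8 and 99.7 in WT livers. It was lower in both KO libraries, but its change of -0.50 ± 0.41 (SE, log2) in the authors' deposited table did not pass the test (adjusted p = 0.342), so the count over the whole gene does not check the labels. Of 8 hepatocyte markers 7 were lower and 1 was higher in KO, of 7 stellate cell and fibroblast markers 5 were higher, of 6 cholangiocyte and progenitor markers 5 were higher, and 3 of 3 proliferation markers were higher. The summed normalised count of the 5 hepatocyte markers with recovered counts was 46219 and 57621 in KO and 324250 and 273740 in WT. That sum leaves out Alb, Cps1 and Apoa1, whose counts were not recovered. Their log2 changes in the authors' deposited table were -1.58, -2.22 and 0.64, Apoa1 being the 1 marker that was higher. The drop of the sum is thus not that of all 8 markers. The sum of the stellate and fibroblast markers was 7155 and 4664 in KO and 878 and 706 in WT. In bulk liver RNA, fewer cells of a type and less RNA per cell cannot be told apart, and the part of these shifts in the results was not tested.

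Transcripts of most of the core ERAD machinery were lower in METTL14Alb livers than in WT livers, all under tunicamycin. Herpud1 and Rnf5 fell the most, with WT means 5.17-fold and 4.84-fold above the KO means, and the 3 derlins, Syvn1, Edem1 and Os9 fell less. Sel1l, the client receptor of the complex, and Edem2, which starts mannose trimming, were the 2 members that did not pass the test. Of the 10 members, 8 were called lower in KO at an adjusted p under 0.05 in the authors' deposited table and 0 were called higher, also 0 at an unadjusted p under 0.05 by the DESeq2 test of that table and by limma. The table does not state which genotype is the numerator, and a positive change was read as higher in KO from the peak lists, a reading on which the naming of the libraries rests too. Across all 14257 tested genes 42.5% were called, 22.2% lower and 20.4% higher. Among the 2671 genes at least as abundant as the least abundant member, Rnf5, 54.8% were called lower and 12.7% higher, which is the closer background for these well expressed genes. The median log2 change was -1.36 over the members, -0.56 over those abundant genes and 0.05 over all tested genes.

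The size of these falls depended on how the libraries were scaled. The deposited size factors keep the typical gene near zero. When counts were instead divided by the total of each library, the median of all genes moved to 0.86 on the log2 scale, and limma called 4 members lower (Herpud1, Derl2, Derl3 and Rnf5), 2 higher (Sel1l and Edem2) and 4 in neither direction. Over all genes that scaling gave 8.00% lower and 58.1% higher. Relative to that median the members kept nearly the deposited values, with -2.41 for Herpud1, -1.53 for Syvn1 and -0.26 for Edem2. The order of the members was the same under both scalings, while the position of zero was set by the scaling. Exchanging the factor of each library moves all genes with many reads by nearly the same amount. The kept order and the values relative to the median follow from that and are no check on the changes. With KO A or KO B left out, limma called 0 of 14218 genes at an adjusted p under 0.05 (5138 and 5526 at an unadjusted p under 0.05, of which 7 and 6 were members, all lower), while the log2 changes of the 8 members stayed negative.

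**Figure D1:**
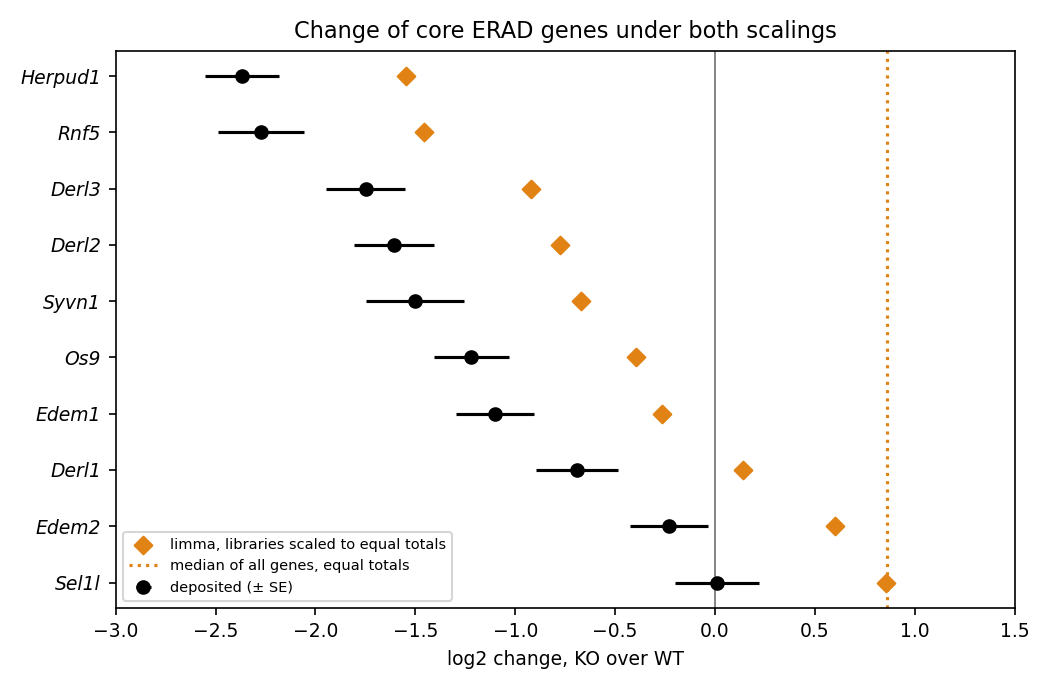
Log2 change (KO over WT) of each gene in the deposited table (black, bars are the standard error) and in limma with libraries scaled to equal totals (orange), ordered from the lowest change; the dotted line is the median of all genes under equal totals. The whole set moves to the right by nearly the same amount, so that 7 of the 8 called genes stay below zero and Derl1 crosses it.

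The ligase complex itself split into members that fell and one that did not. Herpud1 (chr8:94386429-94395371), whose product links the derlins to the ligase, had normalised counts of 4538 and 3921 in the KO libraries, against 19832 and 23856 in the WT libraries. Every KO value lay far below every WT value. Its mean was 4229 ± 436 in KO and 21844 ± 2845 in WT (SD, n = 2 each), and its log2 change in the authors' deposited table was -2.37 ± 0.19 (SE, adjusted p = 2.69e-35), lower than that of all but 3.04% of tested genes.

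Syvn1 (chr19:6046576-6053718), the ubiquitin ligase, had normalised counts of 4298 and 2895 in KO livers, against 7943 and 12415 in WT livers. The groups did not overlap, but libraries of the same genotype stood further apart than for any other member, by 1.48-fold in KO and 1.56-fold in WT. The log2 change in the authors' deposited table was -1.50 ± 0.25 (adjusted p = 1.06e-08), and with equal totals it was -0.67 with a limma adjusted p of 0.0666. The 3′ end of Syvn1 overlaps Mrpl49 in RefSeq and the sources used here do not say whether reads were counted by strand, so some of its reads could belong to that neighbour.

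Sel1l (chr12:91806043-91849157), the adaptor that holds SYVN1 stable and receives clients, had normalised counts of 10938 and 11593 in KO livers, against 9081 and 13300 in WT livers. The KO values lay between the 2 WT values. Its log2 change in the authors' deposited table was 0.01 ± 0.21 (adjusted p = 0.976). Divided by the library total, Sel1l stood at 1095 and 1097 RPM in KO, against 499 and 735 RPM in WT, and on that scale the groups did not overlap and limma called it higher (log2 change 0.86, adjusted p = 0.0110).

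Ratios of reads within a library do not depend on the scaling. Herpud1 had 0.415 and 0.338 reads per read of Sel1l in the KO libraries, against 2.18 and 1.79 in the WT libraries. That ratio was 5.28-fold higher in WT. Syvn1 had 0.393 and 0.250 reads per read of Sel1l in KO, against 0.875 and 0.933 in WT. The balance of these partners thus differed between genotypes by more than between libraries, with no exact test able to go below p = 0.333 for 2 libraries against 2.

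The derlins are related membrane proteins of the rhomboid family that have lost protease activity and form part of the channel for ERAD clients. Derl3 (chr10:75893398-75895941), a known target of the IRE1 and XBP1 branch, had normalised counts of 3122 and 3735 in KO livers, against 10067 and 12975 in WT livers. Derl2 (chr11:71007440-71019841) had 801 and 815 in KO and 2160 and 2766 in WT. For both genes the KO libraries lay well below either WT library. The KO libraries lay close together for Derl2 and 1.20-fold apart for Derl3. Their log2 changes in the authors' deposited table were -1.75 ± 0.20 for Derl3 (adjusted p = 2.38e-17) and -1.61 ± 0.20 for Derl2 (adjusted p = 3.13e-14). RefSeq places Mis12 over part of Derl2, and how reads there were divided is not known.

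Derl1 (chr15:57869502-57892418), which has also been tied to the ligase RNF5, had normalised counts of 4810 and 5695 in KO livers, against 7201 and 9751 in WT livers. Its groups did not overlap after size factors, and its change in the authors' deposited table was -0.69 ± 0.20 on the log2 scale (adjusted p = 0.00252), the smallest of the 8 calls. It had 482 and 539 RPM in KO, against 395 and 539 RPM in WT, and on that scale the groups overlapped and the change was 0.14 (limma adjusted p = 0.528). Derl3 had 0.649 and 0.656 reads per read of Derl1 in KO, against 1.40 and 1.33 in WT, a 2.09-fold higher ratio in WT. Derl3 had 3.90 and 4.58 reads per read of Derl2 in KO and 4.66 and 4.69 in WT, so that pair differed by 1.11-fold and moved nearly together.

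The glycan-reading arm showed a split between its mannosidase-like members. Edem1 (chr6:108824045-108859356), which speeds the disposal of trimmed glycoproteins, had normalised counts of 3504 and 3446 in KO livers, against 6415 and 8515 in WT livers. Its groups did not overlap after size factors, and its log2 change in the authors' deposited table was -1.10 ± 0.19 (adjusted p = 1.33e-07). Divided by the library total, Edem1 had 351 and 326 RPM in KO, against 352 and 470 RPM in WT. On that scale its log2 change was -0.27 (limma adjusted p = 0.214). Edem2 (chr2:155701673-155729475) had 2930 and 3079 in KO and 3058 and 3996 in WT. These groups overlapped, and the change in the authors' deposited table was -0.23 ± 0.20 (adjusted p = 0.361). Edem1 had 1.20 and 1.12 reads per read of Edem2 in KO, against 2.10 and 2.13 in WT, with libraries of a genotype much closer to each other than the genotypes were.

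Os9 (chr10:127094259-127121160), the lectin that binds trimmed glycans and passes clients to SEL1L, had normalised counts of 8375 and 9969 in KO livers, against 19252 and 23456 in WT livers. No KO value came near a WT value after size factors, and the log2 change in the authors' deposited table was -1.22 ± 0.19 (adjusted p = 1.25e-09). Divided by the library total, Os9 had 839 and 943 RPM in KO, against 1057 and 1296 RPM in WT. On that scale its log2 change was -0.40 (limma adjusted p = 0.112). Rnf5 (chr17:34601099-34603561), a membrane-anchored ubiquitin ligase known in human cells for acting on misfolded CFTR, was the member with the fewest reads. It had normalised counts of 308 and 252 in KO livers, against 1298 and 1415 in WT livers, and its log2 change in the authors' deposited table was -2.27 ± 0.22 (adjusted p = 1.74e-24). Its raw reads numbered 387 and 297 in KO and 1204 and 1051 in WT, so counting error was small beside the difference. Edem1 and Os9 share part of their span with noncoding genes of RefSeq (Gm35417 and Gm40799), with the same limit as for Syvn1.

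**Figure D2:**
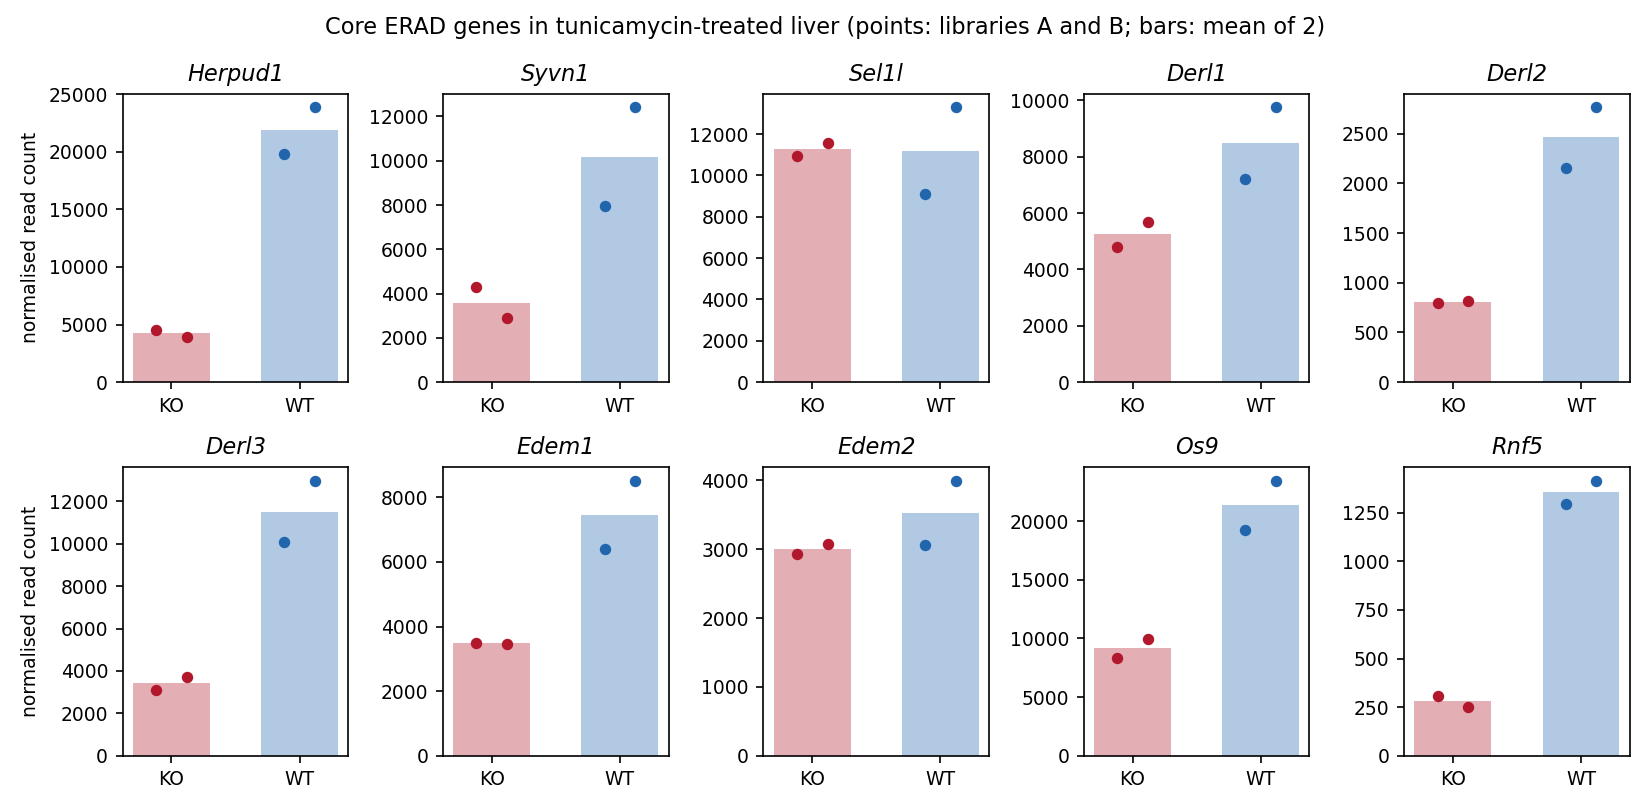
Normalised read count of each gene in the KO (red, left) and WT (blue, right) input libraries; points are libraries A and B of a genotype and bars are their mean, and every vertical axis starts at 0. The KO points lie below both WT points in 8 panels. In the panel of Sel1l both KO points lie between the WT points, and in that of Edem2 only KO B does.

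The 2 WT libraries differed in one direction for the whole set. WT B was above WT A in 10 of 10 members, by 1.09-fold to 1.56-fold with a median of 1.30-fold, while WT B was above WT A for 50.2% of all genes compared. KO B was above KO A in 6 of 10 members, with a median ratio of 1.03 and a range of 0.674 to 1.20. WT A, the lower WT library, was still above both KO libraries for the 8 called members. By the same reading 39.5% of 12808 genes had both KO libraries below both WT libraries and 39.6% had both above.

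The make-up of the reads assigned to the 10 genes changed with genotype. Shares are of reads and not of transcripts, since long mRNAs give more reads. Sel1l took 25.1% and 25.5% of these reads in the KO libraries, against 10.5% and 11.8% in the WT libraries, and became the largest contributor in KO. Herpud1 took 10.4% and 8.64% in KO, against 23.0% and 21.2% in WT. Edem2 took 6.72% and 6.78% in KO, against 3.54% and 3.55% in WT. Edem1, with 8.03% and 7.59% in KO and 7.43% and 7.57% in WT, and Os9, with 19.2% and 22.0% in KO and 22.3% and 20.9% in WT, held nearly the same share. The summed reads of the 10 genes came to 4368 and 4295 RPM in KO, against 4739 and 6212 RPM in WT, so the set took a smaller part of the KO libraries even when scaled by totals.

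**Figure D3:**
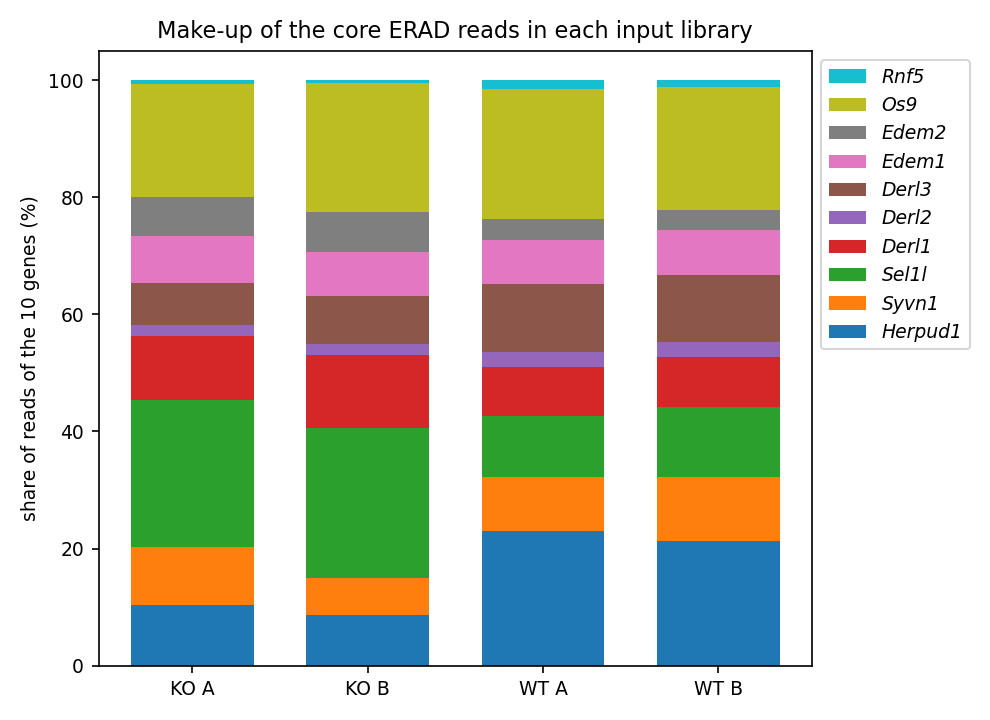
Share (%) of the reads of the 10 genes that each gene took in each input library, KO libraries left of WT libraries. The Sel1l segment is widest in KO and the Herpud1 segment shrinks there, while the Edem1 and Os9 segments change little.

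The genes whose pattern over the 4 libraries lay nearest to that of Herpud1, by Euclidean distance between centred log2 normalised counts among 9153 genes with a mean of at least 100, were Atf5 (0.0427), Slc23a1 (0.0717) and Hint3 (0.150). Atf5, a transcription factor of stress responses, had normalised counts of 9106 and 8093 in KO livers, against 39778 and 47298 in WT livers. Slc23a1, a vitamin C transporter, had 277 and 240 in KO and 1288 and 1461 in WT, and Hint3 had 127 and 105 in KO and 527 and 580 in WT. Such likeness rests on 4 libraries and is a description.

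In the wider pathway the share of genes that fell was near that of other genes of like abundance. Of 79 further genes of ERAD and its surroundings, 78 were tested, and the authors' deposited table called 37 lower and 12 higher in KO, with a median log2 change of -0.43. Of the 47 at least as abundant as Rnf5, 55.3% were called lower and 14.9% higher with a median of -0.48, against 54.8%, 12.7% and -0.56 for all genes of that abundance. The counts of each list below are thus no sign that the pathway stands apart. With equal totals limma called 36 higher and 8 lower among the 75 of them with recovered counts.

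Among E2 enzymes and other ER ligases 6 of 12 fell and 2 rose. Aup1, a lipid droplet protein that recruits the E2 enzyme UBE2G2, had -1.09 ± 0.18, March6, a large ER ligase of sterol enzymes, -1.17 ± 0.19, and the E2 enzyme Ube2k -0.96 ± 0.21 in the authors' deposited table (log2 change ± SE). Among the other lectins and mannosidases 2 of 6 fell and 2 rose: Erlec1, a lectin related to OS9, had -1.21 ± 0.21 and Man1a, a mannosidase of the early secretory pathway, -0.88 ± 0.19, while Edem3 had 0.89 ± 0.24 in the authors' deposited table. Edem3 had normalised counts of 2061 and 2067 in KO livers, against 851 and 1378 in WT livers. The 3 EDEM genes thus stood at a fall, no call and a rise.

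Among membrane adaptors 5 of 12 fell and 1 rose. Vimp and Selk, selenoproteins that bind derlins and VCP, had -1.16 ± 0.20 and -1.17 ± 0.20, and Erlin2, which marks IP3 receptors for degradation, had 0.85 ± 0.24 in the authors' deposited table. In extraction and deglycosylation 12 of 21 fell and 1 rose, led by the peptide glycanase Ngly1 (-1.44 ± 0.23) and the VCP cofactors Ubxn4 (-1.11 ± 0.21) and Ubxn6 (-1.01 ± 0.20) in the authors' deposited table. All 3 leading genes were lower in both KO libraries than in either WT library, as were 39.5% of 12808 genes. The 3 were picked by their p in these same libraries, so this adds no support.

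Among ER chaperone partners 6 of 11 fell and 2 rose, in opposite directions for close partners. Hspa5, the chaperone BiP, had 1.36 ± 0.20, while its cofactors Sdf2l1 (-1.38 ± 0.20), Dnajb11 (-1.12 ± 0.18) and Dnajb9 (-0.75 ± 0.20) were lower in the authors' deposited table. Of the upstream regulators 4 of 7 fell and 1 rose. Xbp1 had -0.74 ± 0.19, Atf6b -0.90 ± 0.21 and Creb3l3, a hepatocyte factor released from the ER membrane, -1.63 ± 0.21, while Ern1, which encodes the sensor IRE1, had 1.12 ± 0.26 in the authors' deposited table. Xbp1 counts here cover the spliced and unspliced forms together.

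Of 12 genes whose proteins are known clients of ERAD ligases, 3 fell and 4 rose. Serpina1a, an alpha-1 antitrypsin and also one of the hepatocyte markers, had -3.32 ± 0.18, Insig1, a brake on sterol synthesis, -2.21 ± 0.23 and Nfe2l2, which encodes NRF2, 1.67 ± 0.24 in the authors' deposited table. Ern1 and Creb3l3 stand in this list too, as known SYVN1 clients. These are mRNA counts, and the amounts of the proteins were not measured.

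**Figure D4:**
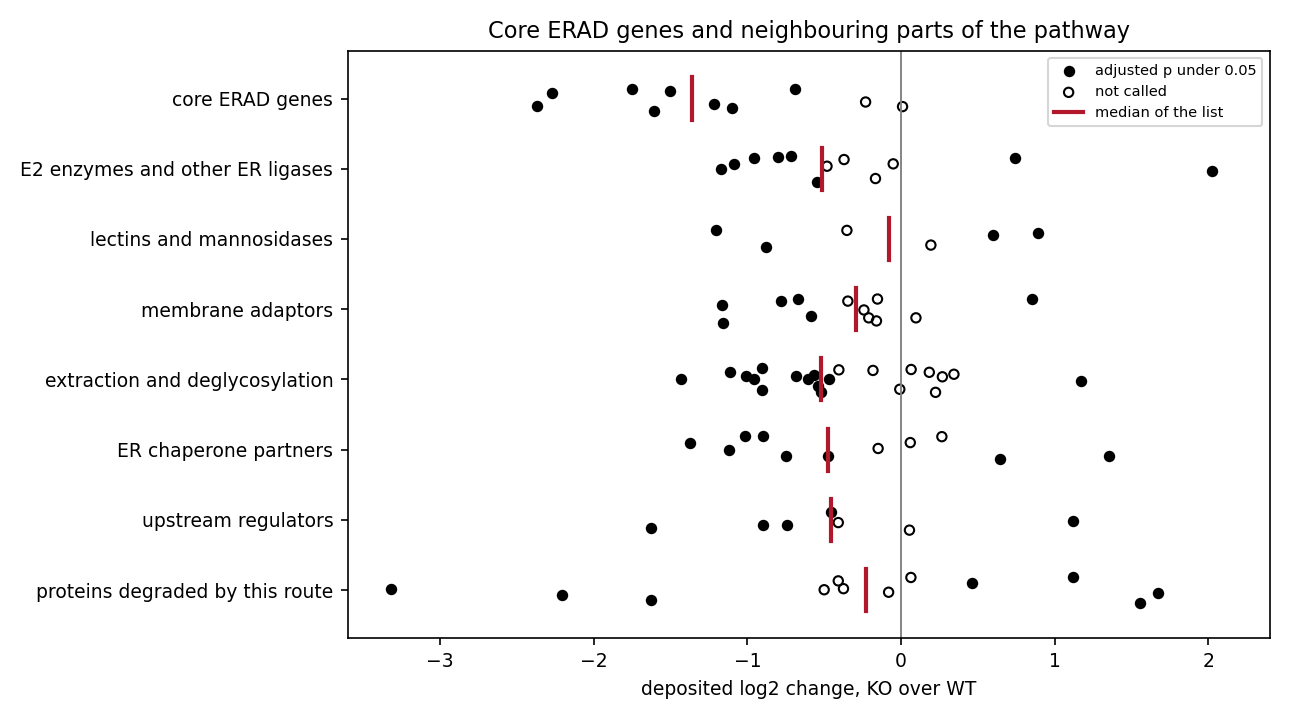
Deposited log2 change (KO over WT) of the 10 core genes (top) and of 7 lists of further genes; each point is a gene, filled where the adjusted p is under 0.05, and the red bar is the median of the list. The core genes have the lowest median, -1.36, with Sel1l (0.01) just above zero. The other lists hold points on both sides of zero too.

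Peaks of m6A lay on 9 of the 10 members in KO livers and on the same 9 in WT livers. Derl2 had 0 peaks in either list. Of the 2671 equally abundant genes 88.4% had a peak in the KO list, 65.8% in the WT list and 63.6% in both. The members had 25 peaks in the KO list and 38 in the WT list, with 6158 and 3553 bases in all. The lists give 1 enrichment (IP over input) and 1 p per peak and genotype, so no spread between libraries and no test of a difference can be had. The whole KO list was also the longer one, with 12290 peaks against 5586 and median enrichments of 13.1 in KO and 24.2 in WT, and enrichments of the 2 lists are given side by side with that in view.

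Each of the 9 genes had a KO peak that overlapped a WT peak by at least 1 base, as did 89.9% of the 2731 genes with peaks in both lists. Overlap reached 18 of the 25 KO peaks (against 28 of the 38 WT peaks), and 7 peaks of each list overlapped by at least 0.5 of both, on 5 genes. More peaks were listed in WT than in KO for 5 of the 9 genes, against 20.9% of those 2731 genes, while 8 of the 9 covered more bases in KO, against 88.3% of them. Of the member peaks 3 of 25 in KO and 20 of 38 in WT were under 50 bases long, against 32.7% and 51.2% of the whole lists. A wide peak in KO thus often faced several narrow ones in WT. A peak within 300 bases of the gene start was present for 8 of the 9 genes in KO and for 8 in WT, counted for Derl1 and Rnf5 from the gene bound. Of the 7 with a single promoter window it was present for 6 in KO and 6 in WT, against 65.6% and 54.4% of the 3618 and 1863 genes with peaks and a single window.

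Positions are given in mm10 as listed, with an uncertainty of 1 base at the ends, and distances are from the RefSeq start that sets the promoter window, or from the gene bound where a member has no window. For Edem1 that start (108828641) lies inside the gene bounds given above. Herpud1 had 4 peaks in each list. The one that starts 71 bases after the gene start had an enrichment of 13.6 in KO (chr8:94386500-94389412) and 24.2 in WT (chr8:94386500-94389363), and it began just past the promoter window printed above. It was the highest of the gene in both genotypes. Further along, the peak at 5886 bases had 1.99 in KO and 2.22 in WT, and the one that ends 604 bases before the gene end had 1.81 in KO and 2.88 in WT. A KO peak near the 3′ end, at 8388 bases (4.85), had no WT partner, and a WT peak at 2983 bases (1.35) met a KO peak by a single base.

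Syvn1 had 3 KO peaks and 6 WT peaks, and those of WT all lay in the last part of the gene. KO peaks at 6352 and 6895 bases from the start had enrichments of 7.40 and 8.52, and a KO peak at 708 bases (3.91) had no WT partner. WT peaks began at 6056, 6352, 6451, 6599, 6698 and 6797 bases, with enrichments of 17.9, 23.1, 23.5, 7.12, 4.05 and 15.7. It was the one gene of the 9 with more peak bases in WT (639) than in KO (494).

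Sel1l had 4 KO peaks and 5 WT peaks. The peak at the gene start had an enrichment of 8.99 over 400 bases in KO (chr12:91841642-91849107) and of 2814 over 49 bases in WT (chr12:91849008-91849057), the widest gap between paired values among the members. A KO peak of 999 bases (14.2) near the 3′ end faced 3 WT peaks with 52.6, 54.5 and 64.3, and another WT peak beside it had 21.5. KO peaks at 16081 bases (6.54) and at 42465 bases (4.57) had no WT partner. The sources used here do not say how the enrichment was calculated, so the value of 2814 cannot be read as a share of methylated molecules.

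Derl1 had 3 KO peaks and 7 WT peaks. Its start peak had 16.9 in KO and 4.20 in WT, the reverse of the order at the Herpud1 start. Near the 3′ end a KO peak of 698 bases (8.84) faced 4 WT peaks with 14.1, 18.7, 25.0 and 7.04, and a KO peak with 15.2 lay between WT peaks with 9.14 and 4.32 that it did not overlap. Derl3 had 2 KO and 3 WT peaks, and the pair at 1900 bases was nearly the same in extent and enrichment (9.64 in KO and 8.98 in WT). The Derl3 start peak had 7.57 in KO, against 6.85 and 1.41 for the 2 WT peaks it overlapped.

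Edem1 had 1 peak in each list, near the gene start, with 17.5 over 247 bases in KO (chr6:108828691-108828938) and 79.1 over 98 bases in WT (chr6:108828840-108828938). Edem2 had its highest KO value at the start, 35.5, against 20.1 in WT, while the overlapping pair near its 3′ end had 5.75 in KO and 31.3 in WT, and a KO peak with 3.89 had no partner. Edem2 and Derl3 were the 2 of the 9 genes whose highest enrichment was in the KO list. In the other 7 it was in the WT list, as in 77.8% of all genes with peaks in both lists.

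Os9 had 4 KO peaks and 9 WT peaks. Its start peak had 11.2 in KO, against 15.3 and 1.99 for the 2 WT peaks it overlapped, the one at 22553 bases 3.59 in KO and 13.3 in WT, and the one nearest the 3′ end 16.1 in KO, against 17.2 and 2.83 in WT. One KO peak (1.99) and 4 WT peaks (3.04, 0.922, 1.72 and 1.67) between them had no partner. The WT peak with 0.922 carried an authors' p of 0.793 and is thus listed without enrichment over input. Rnf5 had 1 peak in each list, at the gene start, with 9.27 in KO (chr17:34603416-34603561) and 16.5 in WT (chr17:34603464-34603561). Rnf5 thus had a peak at the same place in both genotypes.

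**Figure D5:**
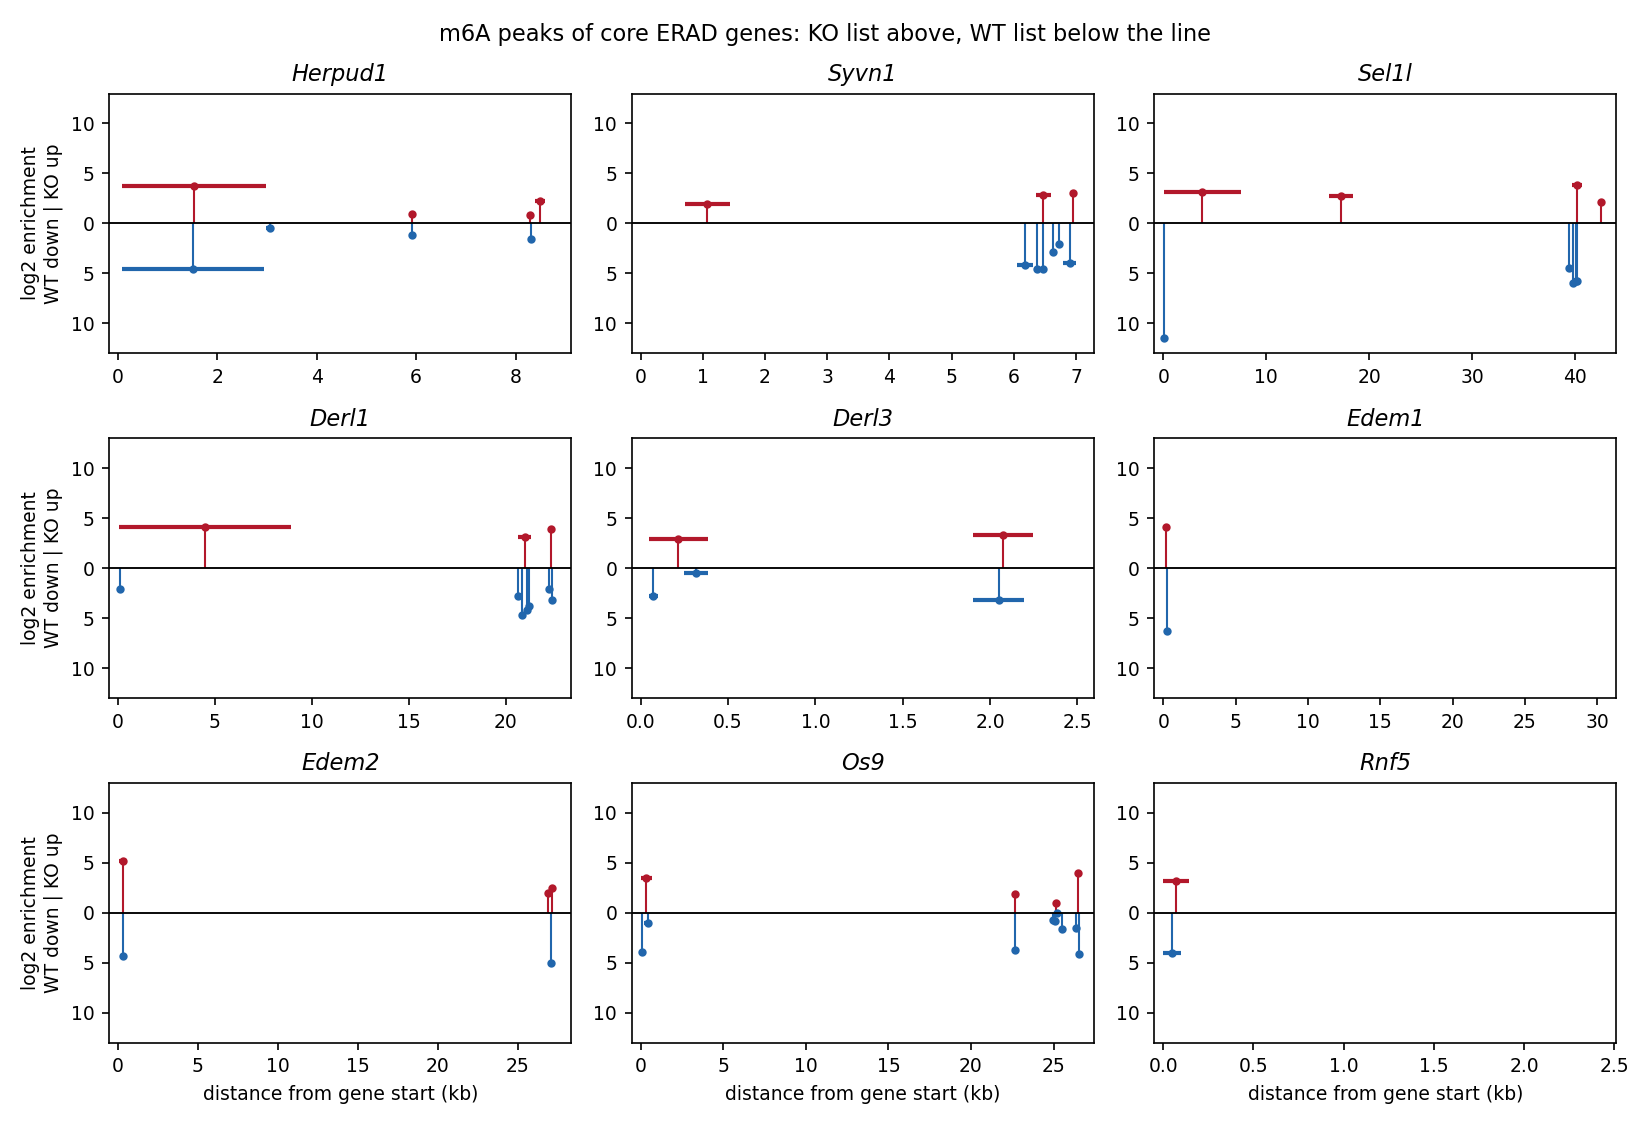
Peaks of the 9 genes with any, by distance from the gene start (kb) and log2 enrichment, KO list above and WT list below the line; horizontal bars run over the whole extent of a peak, introns between its blocks included, and the WT peak of Os9 with an enrichment of 0.922 is drawn at 0. Start peaks appear on both sides of the line in 8 of the 9 panels, Syvn1 being without one within 300 bases, and the WT point of Sel1l at 2814 is the furthest from it.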

How the data were processed

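Liver input and m6A IP libraries of KO and WT mice were compared, with 2 libraries per genotype and type. The submitters' processing notes list the mm10 build, the aligner HISAT2 (2.1.0) and, of the submitters' statistical tools, DESeq2 (1.18.1). Read counter, annotation and peak caller: not given in the sources used here. Per the file headers, the authors deposited for each gene a mean signal (counts divided by size factors, over 4 input libraries), a log2 fold change with its standard error, a score (the Wald statistic), a p-value and an adjusted p-value. The authors' deposited peak lists give per peak an enrichment, taken as a ratio of IP over input, and a value between 0 and 1, taken as a p-value that may or may not be adjusted.

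Which genotype the fold change has on top is unstated. It was read as KO over WT because, among genes with an absolute log2 change above 2 and a mean of at least 100, those above zero had peaks in the KO list alone for 156 and in the WT list alone for 0, and those below zero for 30 and 46 (two-sided Fisher's exact test across genes, p = 1.31e-28).

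Deposited means carry enough digits to solve for whole counts per input library, which succeeded for 16069 of 16133 genes (99.6%), with the fold change as a guide above a mean of 100. For 1333 genes whose counts were found without it, refitted and deposited fold changes stood 6.49e-07 apart in the median and 0.00486 apart at most (log2). Of the members, 9 had 1 solution, and for Os9 1 of 3 solutions was chosen by the fold change. On simulated means 953 of 955 genes were recovered, all correctly. Depth was 12440283 to 16891262 reads per library, with the 64 other genes set to their deposited means, and depth behind single peaks is unknown.

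Calls are those of the deposited table at an adjusted p under 0.05. As an alternative, log2(normalised count + 1) of 14218 genes with a deposited adjusted p was tested in limma 3.58.1 (trend), with Benjamini-Hochberg adjustment over them. On simulated counts for these genes it called 48% of log2 changes of 1, 99% of changes of 2 and 0.0428% of unchanged genes. The simulation changed only a small part of the genes and gave all the same dispersion. In the data limma called 3569 genes higher and 3480 lower, so these shares need not hold there. Other scalings, pseudocounts, filters, thresholds and leaving out each library were tried as well. The filter by deposited adjusted p was chosen after seeing the data, because the test on simulated data found fewer of its changes without it. Peaks were shared where blocks on 1 strand overlapped by at least 1 base.

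The members and all lists were chosen with earlier results of these data known. Named were all members, Mettl14, Hspa5, Xbp1, Dnajb9, up to 3 called genes with the smallest deposited p per list, and the 3 genes nearest Herpud1. For lists of B and plasma cell, T cell, macrophage and endothelial markers the deposited table called 1, 0, 1 and 0 genes higher and 0, 0, 2 and 1 lower. Promoter windows are from RefSeq (GRCm38.p6). Of the 11780 KO and 5362 WT peaks whose gene symbol was found in RefSeq, 99.4% and 99.5% lay inside the gene of that symbol. Peaks with other symbols were not checked.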

Additional observations from a re-analysis of the deposited data

How the results depend on the processing

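The count of 8 lower and 0 higher members was the same with limma under the deposited size factors, an adjusted p threshold of 0.01, adjustment anew over all genes, pseudocounts of 0.5 and 10, and a filter at a mean of 10 or none. No filter was the first plan for limma, and the filter by deposited adjusted p was chosen after seeing the data. With upper quartile scaling, under which the median of all genes was 0.20, 7 members were lower, since Derl1 (-0.53) had an adjusted p of 0.0551. With total-count scaling 4 members were lower and 2 higher, and 8 and 36 genes of the wider lists against 37 and 12. Under that scaling Derl1 (0.14) and Edem2 (0.60) changed sign. Leaving out 1 library gave 0 to 8 lower and 0 higher members, 0 to 39 lower and 0 to 10 higher genes of the wider lists. The counts of 0 arose without KO A and without KO B, where limma called 0 of 14218 genes (5138 and 5526 at an unadjusted p under 0.05) and the lone KO library was taken to vary like the WT pair. In all 4 such fits the 8 called members stayed lower, Herpud1 between -2.50 and -2.23 and Derl1 between -0.90 and -0.46. Without WT B, Derl1 had an adjusted p of 0.107. Sel1l, not called, ranged from -0.24 to 0.31. Requiring an overlap of 0.5 of both peaks left 5 members with a shared peak. Keeping peaks at or above the median enrichment of their list left 3 with a shared peak and 5 with a WT peak. The reading of the fold change as KO over WT kept its direction at an absolute log2 change above 1 (p = 2.03e-45) and at a mean of at least 1000 (p = 5.07e-05, Fisher's exact test). No paired analysis was possible because the recovered libraries carry no replicate number.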
